A study of Homo sapiens with 9 samples.

Results

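NEAT1 and MALAT1 are neighbouring genes of long noncoding RNAs on chromosome 11, and their peaks of CDK9 and DDX21 were described here in A375 cells, a human melanoma line. The members are the peaks that overlap 65185000 to 65214000 (NEAT1, 65190269 to 65213011, 22743 bp) or 65262000 to 65277000 (MALAT1, 65265233 to 65273940, 8708 bp) in hg19, the build of all peak coordinates. They number 82 of the 27469 peaks in 6 lists, with 43 at NEAT1 and 39 at MALAT1, and 76 of the 82 are CDK9 peaks. Both genes were chosen from the CDK9 peaks of these same lists, with the number, strength and treatments of those peaks in view, so their counts, folds and overlaps are a description and carry no test.

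Both RNAs stay in the nucleus. NEAT1 RNA is the scaffold of paraspeckles, nuclear bodies that hold RNA-binding proteins, and is made as a short and a long form from the same start. MALAT1 RNA is abundant in most cell lines and collects in nuclear speckles, where splicing factors are stored. The kinase CDK9, as part of P-TEFb, phosphorylates RNA polymerase II, which then moves from the promoter into the gene. DDX21 is an RNA helicase, mostly of the nucleolus. Both genes are transcribed from the plus strand, so the lower coordinate is the start, and positions below are given in bp from it, negative upstream.

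In each of the 6 groups, 1 library of A375 cells was immunoprecipitated with an antibody against CDK9 or DDX21 after 24 h with DMSO, with 25 µM A771726, or with 25 µM A771726 and nucleotides. The compound A771726, formed in the body from leflunomide, blocks dihydroorotate dehydrogenase, on which the making of pyrimidines depends. Which nucleotides were added, and how much, is not given in the labels. With 1 library per group there is no replicate error, no p-value is given, and intervals cover counting error only. Bulk chromatin cannot tell fewer bound cells from less protein on each copy, and peak lists gave no check of the cell line by its markers.

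RefSeq's promoter table matched 1 of the 2 genes, MALAT1, with 2 entries, and they are shown because the strongest CDK9 peak of MALAT1 did not lie at the gene's start. Each runs from 250 bases before to 50 bases after a start, on the plus strand of GRCh38.p14 (chr11:65497488-65497787 and chr11:65498795-65499094), a build other than that of the peaks, and no coordinate was converted. Capitals mark matches, on either strand, to a searched motif.

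MALAT1 first start: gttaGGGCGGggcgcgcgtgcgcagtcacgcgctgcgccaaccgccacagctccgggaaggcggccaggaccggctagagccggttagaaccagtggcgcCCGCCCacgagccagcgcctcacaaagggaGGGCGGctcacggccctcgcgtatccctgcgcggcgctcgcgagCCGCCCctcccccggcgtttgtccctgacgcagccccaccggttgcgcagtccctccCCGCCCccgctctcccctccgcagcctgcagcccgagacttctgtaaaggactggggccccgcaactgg

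MALAT1 second start: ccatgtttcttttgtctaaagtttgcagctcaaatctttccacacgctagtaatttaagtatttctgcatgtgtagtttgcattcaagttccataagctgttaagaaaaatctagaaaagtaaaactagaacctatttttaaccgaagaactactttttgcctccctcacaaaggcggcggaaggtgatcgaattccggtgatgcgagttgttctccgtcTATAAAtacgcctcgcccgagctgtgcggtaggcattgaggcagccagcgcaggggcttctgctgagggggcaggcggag

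The promoters are unlike in composition. The first is 73.7% G and C with 37 CG pairs, and the second 46.0% with 14, where the median of 35116 promoters is 58.7% and 14. GGGCGG, the GC box, was found 5 times in the first and in 45.0% of all promoters. TATAAA, the core of the TATA box, was found once, in the second, from position -30, and in 11.5% of all promoters. None of the other motifs searched was in either sequence: CCAAT (in 34.6% of promoters), TGACTCA, an AP-1 site (4.95%), CACGTG, an E-box (7.26%), and GGAAGT, an ETS site (22.8%). No matches overlapped. In RefSeq's build the second start lies 1307 bp after the first, and the CDK9 summits described below lie 1286, 1319 and 1304 bp after the hg19 start. The hg19 gene of 8708 bp and RefSeq's of 8779 bp differ in length, so these distances are set side by side and not aligned.

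Fold enrichment and −log10 q are the authors' peak caller's, and describe peaks within their own list. In the order DMSO, A771726, and A771726 with nucleotides (below, with nucleotides), the lists held 3462, 290 and 3099 CDK9 peaks and 8321, 4375 and 7922 DDX21 peaks. The CDK9 list with A771726 stands apart. Its shortest peak was 50 bp against 128 and 129 bp in the others, and its median width was 96 bp against 186 bp in both. Peak numbers, covered bp and pileups of that list are therefore not on the same footing as those of the others. Whether its peaks were called with another fragment length is not known, and heights are given under 2 scalings.

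CDK9 lay over the start and the first part of NEAT1 in DMSO cells. The window held 16 peaks, which covered 5506 bp or 24.2% of the gene. The strongest ran from 65190174 to 65192404, 2231 bp across the gene's start, with its summit at 58 bp, a fold enrichment of 9.62 and rank 6 of 3462 by −log10 q. At its summit 82 fragments were piled up (95% Poisson interval 65.2 to 101.8). No other NEAT1 peak of this list had more than 30 fragments. The next strongest by pileup lay upstream, with 30 fragments at -1463 bp and 29 fragments at -474 bp. Of the 14 summits in the gene, 12 were within its first 8735 bp, and the others were at 12802 and 19271 bp. Coverage was lower farther along the gene: of 10 equal parts, numbered from the start, part 1 was covered to 97.7%, the next 3 to 40.6%, 56.0% and 35.4%, and part 5 not at all. Parts 1 to 5 together were covered to 45.9% and parts 6 to 10 to 2.49%.

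MALAT1 was covered along its length instead. Its 16 DMSO peaks took in 5573 bp or 64.0% of the gene, and 9 of its 10 equal parts were between 55.7% and 92.7% covered. Part 1 was not covered. A peak from 65264806 to 65265198, with 33 fragments at -128 bp, ended just before the start. The strongest peak ran from 65266355 to 65267253 with its summit at 1286 bp, 59 fragments (44.9 to 76.1), a fold enrichment of 13.4 and rank 8 of 3462. Pileups over the rest of the window were lower, from 19 to 44 fragments. The peaks went past the end of the gene, with 3 summits downstream of it, the last at 10101 bp from the start. The antisense gene TALAM1 overlaps MALAT1, and chromatin immunoprecipitation carries no strand, so peaks cannot be assigned to either transcript.

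**Figure D1:**
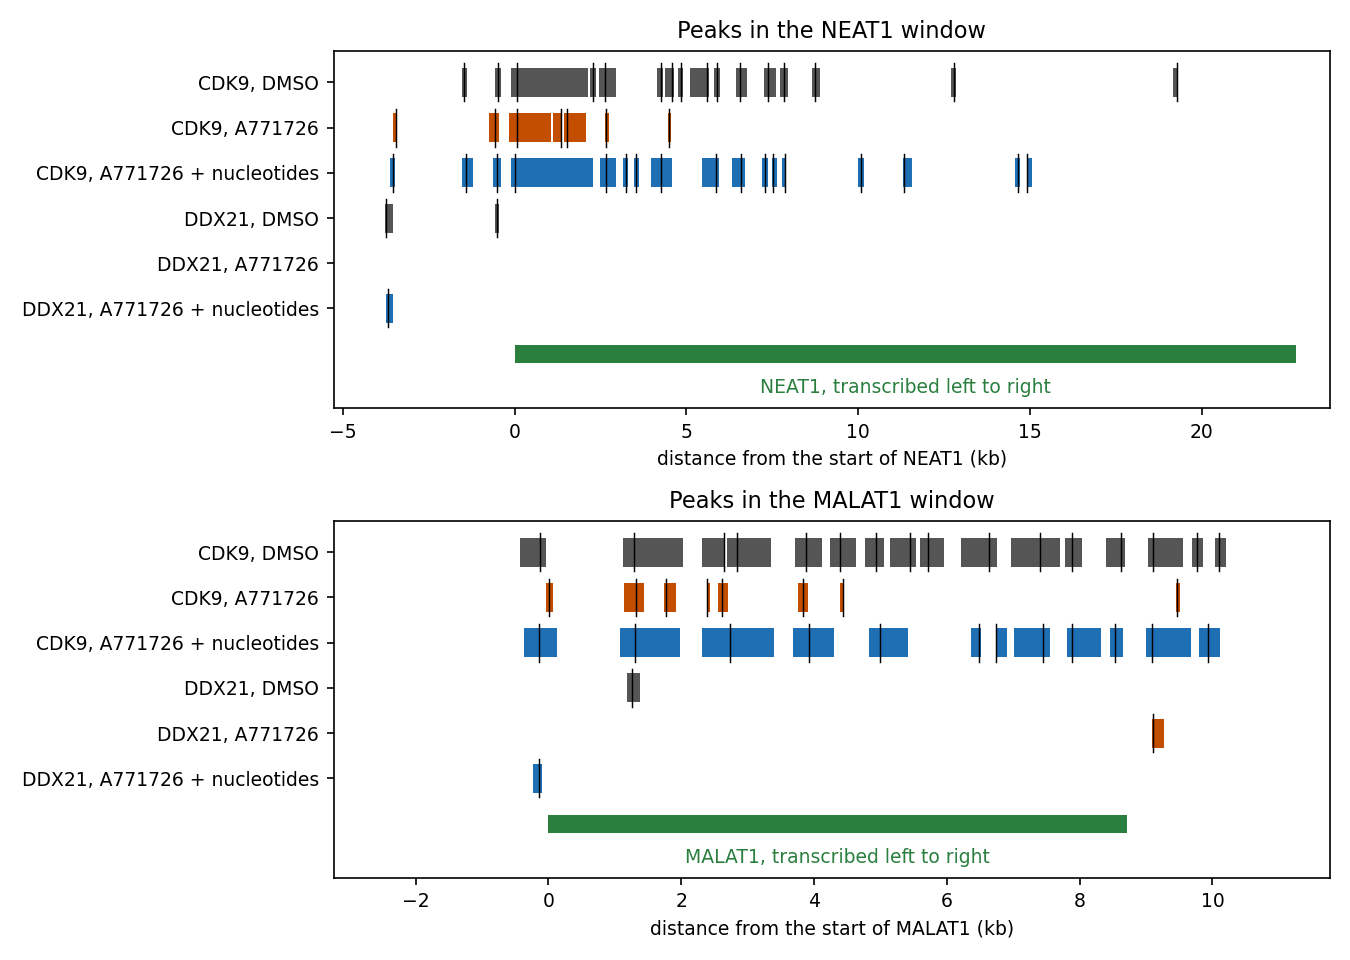
Peaks of the 6 lists (bars, with a line at each summit) against distance from the start of each gene in kb, over the whole window of NEAT1 (top) and MALAT1 (bottom), with the gene in green. CDK9 peaks with A771726 end at 4493 bp in NEAT1 and, but for 1 peak past the gene, at 4438 bp in MALAT1, by summit.

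With A771726, CDK9 peaks at NEAT1 lay around its start and in the first part of the gene. The window held 7, against 16 in DMSO, and they covered 2138 bp of the gene or 9.40%. The strongest ran from 65190118 to 65191317 with its summit at 71 bp, 34 fragments (23.5 to 47.5), a fold enrichment of 10.0 and rank 7 of 290. It was the first of 3 that together lie along the broad DMSO peak. The other 2 ran from 65191390 to 65191642, with 18 fragments at 1356 bp, and from 65191718 to 65192344, with 21 at 1535 bp. Farther in, peaks from 65192893 to 65193008 and from 65194733 to 65194825 had 17 and 16 fragments, with summits at 2649 and 4493 bp. Upstream, peaks from 65186734 to 65186817 and from 65189521 to 65189802 had 15 and 16 fragments, at -3465 and -569 bp. No A771726 summit lay beyond 4493 bp, where DMSO had 10 of its 16. Part 1 of 10 was 84.8% covered, part 2 8.84%, part 3 0.352% and the others not at all.

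At MALAT1 the list with A771726 held 8 CDK9 peaks, against 16 in DMSO. They covered 952 bp or 10.9% of the gene. Again the strongest was that near 1.3 kb from the start, from 65266376 to 65266671, with 25 fragments (16.2 to 36.9) at 1319 bp, a fold enrichment of 9.78 and rank 16 of 290. Peaks from 65266975 to 65267160 and from 65267616 to 65267671 had 15 and 12 fragments, at 1773 and 2393 bp. Those from 65267791 to 65267945 and from 65268999 to 65269142 had 16 each, at 2622 and 3841 bp. A peak of 50 bp from 65269631 to 65269680 had 10 fragments at 4438 bp. The gene's own start held a weak peak from 65265202 to 65265297, with 11 fragments and a −log10 q of 1.81. Past the gene, a peak from 65274689 to 65274744 had 16 fragments at 9472 bp. Between 4438 bp and the end of the gene there was no summit, where DMSO had 7. Parts 1 to 5 were covered to 20.7% and parts 6 to 10 to 1.15%, against 55.6% and 72.4% in DMSO.

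**Figure D2:**
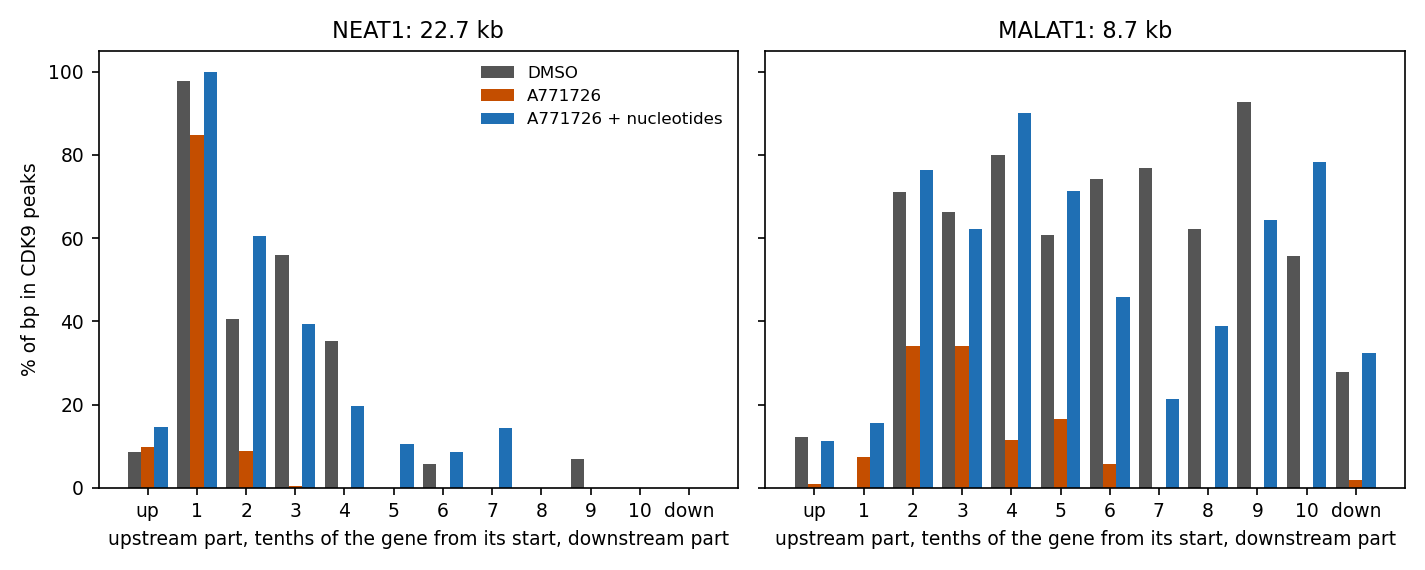
Percent of bp in CDK9 peaks (vertical axis) in the part of the window upstream of each gene, in 10 equal parts of the gene from its start, and in the part downstream, for 1 library per treatment (bars). Within the genes, NEAT1 coverage with A771726 is 84.8% in part 1 and at most 8.84% in any other, and MALAT1 coverage with A771726 is at most 34.0% in any part.

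The number of peaks in a list bears on these extents. When each CDK9 list was reduced to its top 290 peaks by −log10 q, the peaks took in 2136 bp of NEAT1 (DMSO), 2138 bp (A771726) and 2285 bp (nucleotides), so the difference at NEAT1 was no longer seen. Of the DMSO peaks only the broad one at the start was left. At MALAT1 the coverage was then 2378, 952 and 1991 bp, and the A771726 value was still the lowest. Peak numbers, however, were highest with A771726, with 4, 8 and 2 at MALAT1 and 1, 7 and 1 at NEAT1. Equal list lengths do not match peak width, and the A771726 list was narrower (median 96 bp against 186 bp). Nothing is therefore read from the lower MALAT1 coverage. With A771726 peaks limited to those of at least 128 bp, an alternative added after the lists were seen, each gene kept 4 peaks, covering 1929 bp of NEAT1 and 781 bp of MALAT1.

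With nucleotides, CDK9 covered as much of NEAT1 as in DMSO and a little less of MALAT1. NEAT1 held 17 peaks over 5764 bp or 25.3% of the gene, and MALAT1 12 peaks over 4912 bp or 56.4%. The strongest NEAT1 peak ran from 65190165 to 65192553 with its summit at 7 bp, 70 fragments (54.6 to 88.4), a fold enrichment of 8.95 and rank 13 of 3099. That of MALAT1 ran from 65266310 to 65267221 with its summit at 1304 bp, 73 fragments (57.2 to 91.8), a fold enrichment of 12.6 and rank 3. These are the places of the strongest DMSO peaks. Near the starts, a NEAT1 peak from 65189645 to 65189857 had 32 fragments at -511 bp, and a MALAT1 peak from 65264870 to 65265367 had 36 at -147 bp. In the far part of NEAT1 the 2 lists held different weak peaks. Summits with nucleotides were at 10080, 11341, 14649 and 14906 bp, and those of DMSO at 12802 and 19271 bp, with 13 to 19 fragments each and no overlap.

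**Figure D3:**
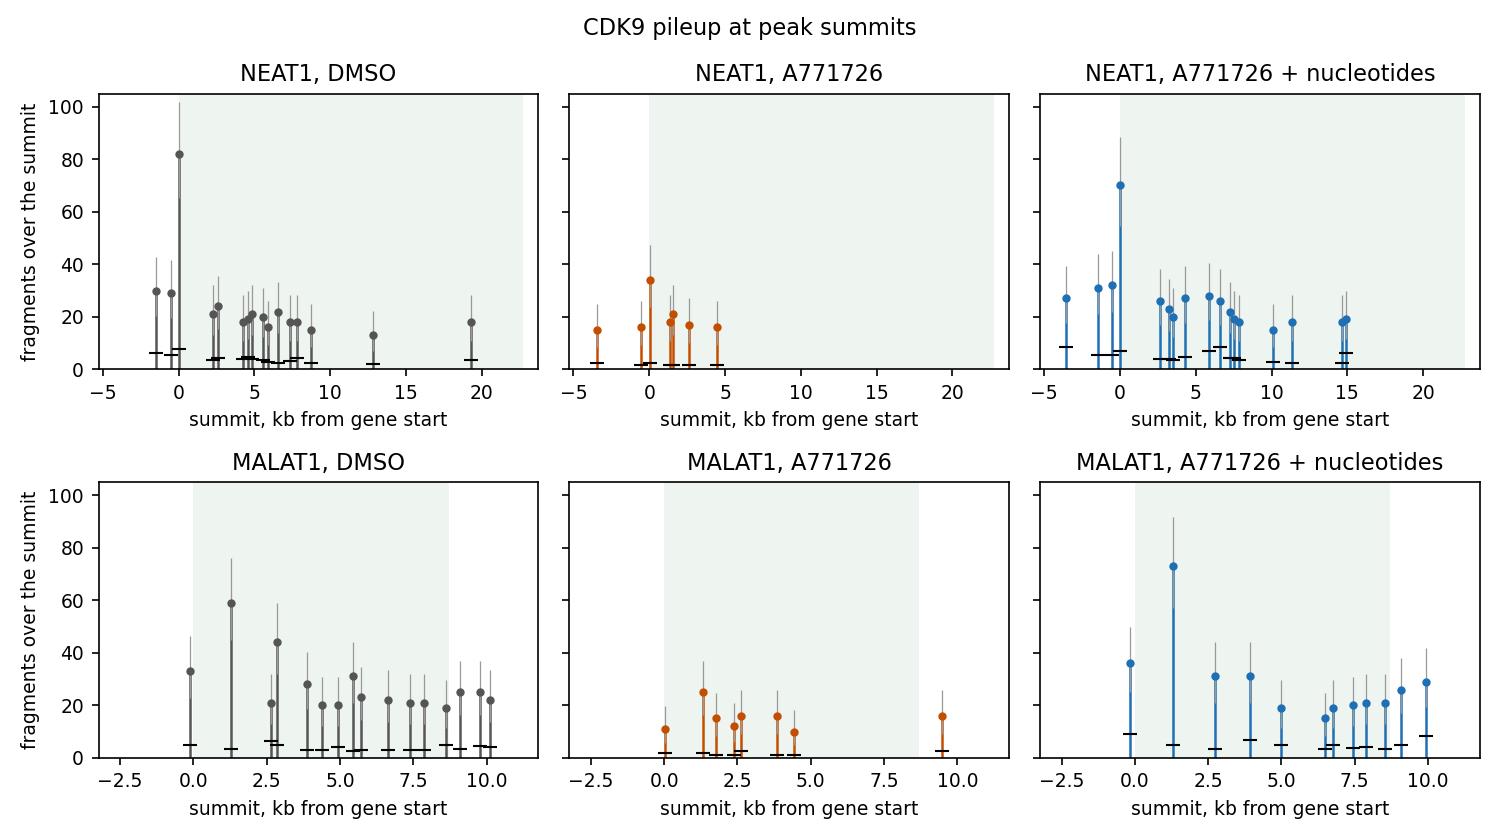
Fragments over each CDK9 summit (points, with 95% Poisson intervals) and the background the peak caller set there (black dashes) against the summit's distance from the gene start in kb, by gene and treatment. The gene is shaded. The highest point of every NEAT1 panel lies at the gene start (82, 34 and 70 fragments) and that of every MALAT1 panel near 1.3 kb (59, 25 and 73).

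An A771726 peak overlapped 4 of the 16 CDK9 DMSO peaks of NEAT1 and 6 of the 16 of MALAT1, together 10 of 32. Over the whole CDK9 DMSO list the share was 5.40%. Since the genes were chosen with this overlap in view, nothing is read from the difference. The share depended on strength: it was 29.7% in the list's top decile by −log10 q and 2.70% in the other deciles. Of the peaks of the 2 genes, 4 of 5 in the top decile and 6 of 27 in the others had one. Width was not matched, and the median width of DMSO peaks was 209.5 bp at NEAT1 and 394 bp at MALAT1, against 186 bp in the list. In bp, 39.4% of the DMSO coverage of the NEAT1 window and 13.1% of that of MALAT1 was also covered with A771726, against 3.68% of the whole list. With only A771726 peaks of at least 128 bp, 12.5% and 25% of the DMSO peaks had one, against 2.22% of the list.

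Kept and missing DMSO peaks of each gene overlapped in strength. At NEAT1 the 4 with an A771726 peak had 19 to 82 fragments (median 26.5) and the 12 without had 13 to 30 (median 18). At MALAT1 the 6 with one had 20 to 59 fragments (median 26.5) and the 10 without had 19 to 33 (median 22). By position, no DMSO peak of NEAT1 with a summit beyond 4573 bp had an A771726 peak, and 9 of the 12 without one lay there. Inside MALAT1, the 5 with one had summits from 1286 to 4393 bp and the 7 without from 4929 to 8626 bp, while past the gene the peak at 9105 bp had one. At the start of MALAT1 the DMSO peak ends at 65265198 and the A771726 peak begins at 65265202, so that pair counts as missing. The parts that distance and strength play were not tested.

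Most of these sites were on the list with nucleotides. A peak was found there at 12 of 16 DMSO peaks of NEAT1 and 15 of 16 of MALAT1, where 45.2% of all CDK9 DMSO peaks had one. Among the DMSO peaks without an A771726 peak, 8 of 12 at NEAT1 and 9 of 10 at MALAT1 had one with nucleotides. The share over all DMSO peaks without an A771726 peak was not worked out, so nothing is read from these counts. From the other side, 22 of the 29 peaks with nucleotides lay on a DMSO peak, against 50.6% of that list. Peaks with A771726 were mostly at sites of the other lists, at these genes as over the whole list. At the genes 13 of 15 lay on a DMSO peak (77.6% of the list) and 14 of 15 on a peak with nucleotides (76.6%). Nothing about the genes is read from these counts. The lists share the DMSO or the A771726 library, so these counts are not independent of each other.

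Taking peaks that overlap between lists as 1 site, NEAT1 had 20 CDK9 sites and MALAT1 12. Of the NEAT1 sites, 4 were in all 3 lists, 5 in DMSO and with nucleotides, 4 in DMSO alone, 6 with nucleotides alone and 1 with A771726 and with nucleotides. Of the MALAT1 sites, 5 were in all 3 lists, 6 in DMSO and with nucleotides and 1 in DMSO alone. Width was not matched: the median DMSO peak was 394 bp at MALAT1 and 209.5 bp at NEAT1. None of the sites of either gene was in the A771726 list alone. Such sites were not counted over the whole lists, so nothing is read from these numbers. The sites in all 3 lists include those of both gene starts and of the strongest MALAT1 peak. At the MALAT1 start the DMSO and A771726 peaks do not overlap, and only the peak with nucleotides joins them into 1 site.

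How high CDK9 stood at the 2 strongest sites with A771726 depends on how it is scaled. In fragments, the ratio to DMSO was 0.415 (0.269 to 0.626) at NEAT1 and 0.424 (0.254 to 0.687) at MALAT1. Divided by the lowest background of each list, it was 0.932 (0.606 to 1.41) and 0.953 (0.572 to 1.54). That background was 1.17 fragments in DMSO, reached by 6 peaks, and 0.521 with A771726, reached by 1. Over all 187 DMSO peaks with an A771726 peak the medians were 0.419 in fragments and 0.943 divided by background. Over the 4 pairs of NEAT1 the median was 0.630 in fragments and 1.42 divided, and over the 6 of MALAT1 0.536 and 1.204. The direction of these medians thus turned with the scaling. Single pairs, when divided, lay on both sides of 1, from 0.932 to 1.89 at NEAT1 and from 0.817 to 1.44 at MALAT1. A pair needs a listed A771726 peak. These medians thus leave out the 12 DMSO peaks of NEAT1 and 10 of MALAT1 without one, and do not describe the genes as a whole. With nucleotides the lowest background was 1.24, and the divided ratio was 0.804 (0.576 to 1.12) at NEAT1 and 1.16 (0.815 to 1.67) at MALAT1, both with intervals that include 1.

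DDX21 had fewer peaks than CDK9 at both genes, and they were weak. The windows held 0.0361% of the DDX21 peaks of DMSO, 0.0229% of those with A771726 and 0.0252% of those with nucleotides. Since the genes were chosen from their CDK9 peaks, nothing is read from the smaller number for DDX21. The 3 DDX21 lists held 6 peaks in the windows. They covered 191 bp of MALAT1 in DMSO and none of NEAT1 or, with A771726 or nucleotides, of MALAT1. All 6 were weak: 5 were in the lowest decile of their list and 1 in the next. At NEAT1 both DMSO peaks were upstream, from 65186485 to 65186730, with 22 fragments at -3757 bp and a fold enrichment of 3.40, and from 65189686 to 65189813, with 24 at -517 bp and 3.70. No NEAT1 peak was listed with A771726, and 1 was with nucleotides, from 65186532 to 65186726, with 26 fragments at -3701 bp and 3.84. MALAT1 had 1 DDX21 peak per list, each at another place. In DMSO it ran from 65266420 to 65266610, with 18 fragments at 1257 bp and a fold enrichment of 4.13, within the strongest CDK9 peak. With A771726 it ran from 65274321 to 65274510, past the gene, with 20 fragments at 9109 bp and 3.18. With nucleotides it ran from 65265002 to 65265136, before the start, with 25 fragments at -139 bp and 2.94.

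An A771726 peak overlapped none of the 3 DDX21 DMSO peaks, and a peak with nucleotides 1 of them. Over the DDX21 DMSO list the shares were 51.1% and 86.3%. In the lowest decile of that list, which holds these 3, the shares were 1.08% and 38.2%. The A771726 peak past MALAT1 lay on no DMSO peak, whereas 99.3% of that list did. CDK9 peaks were also set against DDX21 peaks of the same treatment. In DMSO 1 of 16 CDK9 peaks at each gene overlapped a DDX21 peak, against 17.8% of the list. With A771726 none of 15 did, against 15.5%, and with nucleotides 1 of 17 at NEAT1 and 1 of 12 at MALAT1, against 13.6%. Of the DDX21 peaks, 2 of 3 in DMSO (7.38% of the list) and 2 of 2 with nucleotides (5.30%) lay on a CDK9 peak. The upstream DDX21 and CDK9 peaks of NEAT1 in DMSO start at the same base, 65189686.

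Around the windows few peaks were listed. In the 47999 bp between the 2 windows CDK9 covered 0.767% in DMSO, none with A771726 and 0.742% with nucleotides. The 29001 bp before the NEAT1 window and the 15001 bp after that of MALAT1 held no peak of any list. By contrast 20.5% of the NEAT1 window and 45.4% of the MALAT1 window was covered in DMSO. The genes were chosen for their CDK9 peaks, so nothing is read from this contrast. Between the windows lay a DDX21 peak stronger than any in them, named after its values were seen, from 65244625 to 65245154 in DMSO with 65 fragments and a fold enrichment of 9.20, and from 65244710 to 65245166 with nucleotides with 51 fragments and 8.08. It had no A771726 peak. The outermost peaks inside the windows end at 65209586 (NEAT1) and start at 65264806 (MALAT1), and the nearest outside them start at 65239648 and end at 65249328. In DMSO the median background at CDK9 summits was 3.73 fragments at NEAT1 and 3.47 at MALAT1, against 4.16 over the list.

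As shares of the CDK9 lists, the 2 windows together held 0.924% of DMSO peaks, 5.17% of those with A771726 and 0.936% of those with nucleotides. The genes were chosen with these peaks in view, and the A771726 list is not on the same footing. Nothing is therefore read from the differences between these shares or those that follow. In covered bp the shares were 1.54%, 9.42% and 1.66%. Set against DMSO, the windows had 0.446 (NEAT1) and 0.152 (MALAT1) times the covered bp with A771726, where the whole list had 0.0471. With nucleotides the ratios were 1.10 and 0.919, and 0.924 for the list.

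The genes can be set beside other dense CDK9 regions of the genome. Over the 3 CDK9 lists together, 21 runs of peaks with gaps of at most 10 kb held 10 or more DMSO peaks, and NEAT1 and MALAT1 were 2 of them. MALAT1 was the most densely covered of the 21 in DMSO, with 641 bp per kb against a median of 155. Over all 238 runs of at least 5 peaks it was 19th and NEAT1 73rd. In the ratio of A771726 to DMSO bp NEAT1 was 7th and MALAT1 47th of the 238, and second and seventh of the 21. Among the 21 the median was 0.0277 and 6 had no A771726 peak. The first of the 21 was chromosome 2 from 224836877 to 224907328, with 0.960. The regions nearest to each gene were also sought only among the 21. Nearest to MALAT1 in this ratio were chromosome 17 from 57906633 to 57920914 (0.184), chromosome 12 from 24186663 to 24199192 (0.119) and chromosome 3 from 149286425 to 149321548 (0.204). Nearest to NEAT1 were chromosome 8 from 29198748 to 29209857 (0.283), chromosome 9 from 22141715 to 22170877 (0.244) and again the region of chromosome 3. For the nucleotides ratio the range over the 21 was 0.333 to 1.34, with NEAT1 sixth and MALAT1 at the median of 0.919. No gene is named for the other regions, since no annotation of hg19 was used here.

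**Figure D4:**
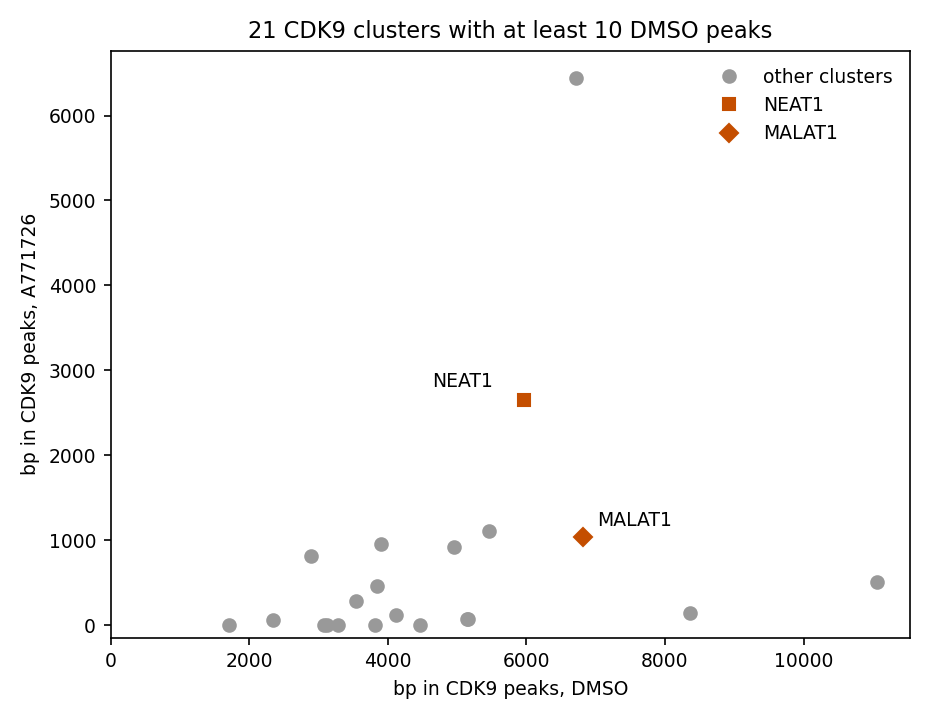
Base pairs in CDK9 peaks in DMSO (horizontal axis) and with A771726 (vertical axis) for the 21 runs of peaks with at least 10 DMSO peaks, 1 point each. NEAT1 (5959 and 2655 bp) lies above all but 1 of the others on the vertical axis, and MALAT1 is at 6815 and 1039 bp.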

How the data were processed

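CDK9 and DDX21 were immunoprecipitated from A375 chromatin, 1 library per antibody and treatment. The labels describe 9 samples, grouped by title. The 6 peak lists were used, and the 3 inputs were not used here. Per the submitters' processing notes the tools were Bowtie and MACS2 2.0 and the build hg19. What each was used for, with which settings and which control, is not given in the sources used here. As deposited, each list gives, as the authors' peak caller wrote them, a fold enrichment (a ratio to local background), a −log10 p and a −log10 q per peak, and a score, which equals 10 times −log10 q rounded down and was not used further. The read depth is unknown.

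The members and lists were chosen with earlier results of these data known. Gene bounds are those of the rule that chose them. Fragments over a summit were worked out from the deposited fold and −log10 p: in every peak some whole number of fragments gave the deposited −log10 p to within 0.001, and 1000 of 1000 simulated pileups per list were recovered. Pileups carry exact Poisson and ratios of pileups exact conditional 95% intervals. Exact binomial (Clopper-Pearson) intervals of shares served only to compare settings. Peaks were shared where they overlapped by at least 1 bp, and deciles rank a list by −log10 q. Peaks named were, by rule, the strongest of each gene and list, those within 500 bp of a start, and every A771726 and DDX21 peak. The NEAT1 DMSO peak at -1463 bp, the farthest NEAT1 summits and other single peaks given by position were chosen after their values were seen. The joint sites, shared bp, kept and missing peaks, and deciles were chosen after the lists were seen. Other settings tried were a stricter −log10 q (5 or more), other overlap rules, gene in place of window, merging within 1 kb, equal list lengths, and other scalings of height. Python 3.11.15 and scipy 1.17.1 were used.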

Additional observations from a re-analysis of the deposited data

How the results depend on the processing

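No paired analysis was possible because each group had 1 library, and for the same reason no library was left out. For 32 results, 126 other settings were run. Of these, 77 gave a share or height inside the 95% interval of the reported one, or a count or bp within 1.5 times of it, and 49 did not. Some of the 77 could not have moved. With equal list lengths the A771726 lists were not shortened, and a stricter −log10 q leaves a value of 0 at 0. Where 3 values follow, they are for DMSO, A771726 and nucleotides. Merging CDK9 peaks within 1 kb gave 4, 3 and 5 at NEAT1 and 2, 4 and 1 at MALAT1, where the treatments are then in another order. With the top 290 peaks of each list, CDK9 peaks numbered 1 in DMSO and 1 with nucleotides at NEAT1 and 4 and 2 at MALAT1, over 2136 and 2285 bp of NEAT1 and 2378 and 1991 bp of MALAT1. Of the DMSO peaks then left, 1 at NEAT1 and 4 at MALAT1, 100% and 75% had an A771726 peak, and 100% and 50% a peak with nucleotides. Shares over the whole lists were not worked out for this setting or for the stricter −log10 q that follows. At a −log10 q of at least 5, NEAT1 held 8 CDK9 peaks in DMSO and 11 with nucleotides, MALAT1 3 with A771726 over 626 bp, and 61.5% of MALAT1 DMSO peaks had a peak with nucleotides. A771726 peaks of at least 128 bp numbered 4 at each gene. In undivided fragments the A771726 heights were 0.415 and 0.424 of DMSO. DDX21 counts were 0 to 2, and merging within 1 kb moved none of them. At a −log10 q of at least 5, NEAT1 held 1 in DMSO, and MALAT1 0 in every list and 0 bp. With the top 4375 peaks, no DDX21 peak of DMSO or with nucleotides was left at either gene, while the A771726 list, which has that length, was not shortened. No DDX21 peak touched a gene except that of MALAT1 in DMSO, and over whole windows DDX21 covered 374 bp (DMSO) and 195 bp (nucleotides) at NEAT1 and 190 bp (A771726) and 135 bp (nucleotides) at MALAT1. The cause of these moves was not tested. No CDK9 peak of any list had under 8 fragments, so weaker sites are not in the lists.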
